A study of Mus musculus with 2 samples.

Results

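The transcripts of 150 genes that encode sequence-specific transcription factors, general transcription factors, coactivators and corepressors were examined in RNA that precipitated with FMRP from mouse testis. They were taken by gene symbol (families such as *Med*, *Taf*, *Ncoa*, *Zbtb*, *Fox*, *Rfx*, *Sox*, *Klf* and *E2f*, with the large *Zfp* family left out) and are 150 of the 4788 protein-coding genes in the deposited table. The table compares 1 input library, RNA of the testicular lysate before precipitation, with 1 library of RNA recovered with an anti-FMRP antibody (FMRP RIP). Both came from adult wild-type males. Strain and number of animals are not given in the sources used here. The 2 libraries held 30849871 reads (input) and 36506932 reads (FMRP RIP). There is 1 library per group, so no difference has a replicate check and no test was run.

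The table holds only genes marked by the authors as higher in the FMRP RIP. The direction was therefore fixed by the selection, and neither a gene that is higher nor the absence of lower genes is a finding. What can be read is which genes of a family are listed and how far each listed transcript lay above the input. A gene outside the table is described as not listed, which does not say that its transcript is absent from testis. No IgG library was used here, so recovery of RNA independent of FMRP was not tested.

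FMRP, the product of the *Fmr1* gene, is an RNA-binding protein that associates with ribosomes and mRNA transport granules and is best known for repressing translation in neurons. It is also made in male germ cells. Transcription by RNA polymerase II needs general factors at the promoter (TFIID with its TAF subunits, TFIIA to TFIIH), the Mediator complex, which connects them with factors bound at enhancers, and coactivators or corepressors that modify chromatin. Spermatogenesis uses its own regulators, such as MYBL1 in meiotic cells and RFX2 in spermatids, and transcription falls silent as the spermatid nucleus condenses, so that mRNAs made earlier are stored and translated later.

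The share of genes in the table was higher for transcription regulators than for protein-coding genes in general. Of 374 reference genes that the symbol rule takes in, 150 (40.1%) were listed, against 21.3% of all 21900 protein-coding genes of the RefSeq annotation (GRCm38.p6). The symbol families were picked with earlier results of these data known, so this difference is a description and no independent evidence. In 16 of 17 role groups the share was above that background. All 6 corepressor genes were listed, with 6 of 7 genes named *Ncoa* and 9 of 11 E2F, MYBL and MGA genes. At the other end, 11 of 44 forkhead genes and 5 of 24 TAF genes (20.8%) were listed.

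**Figure D1:**
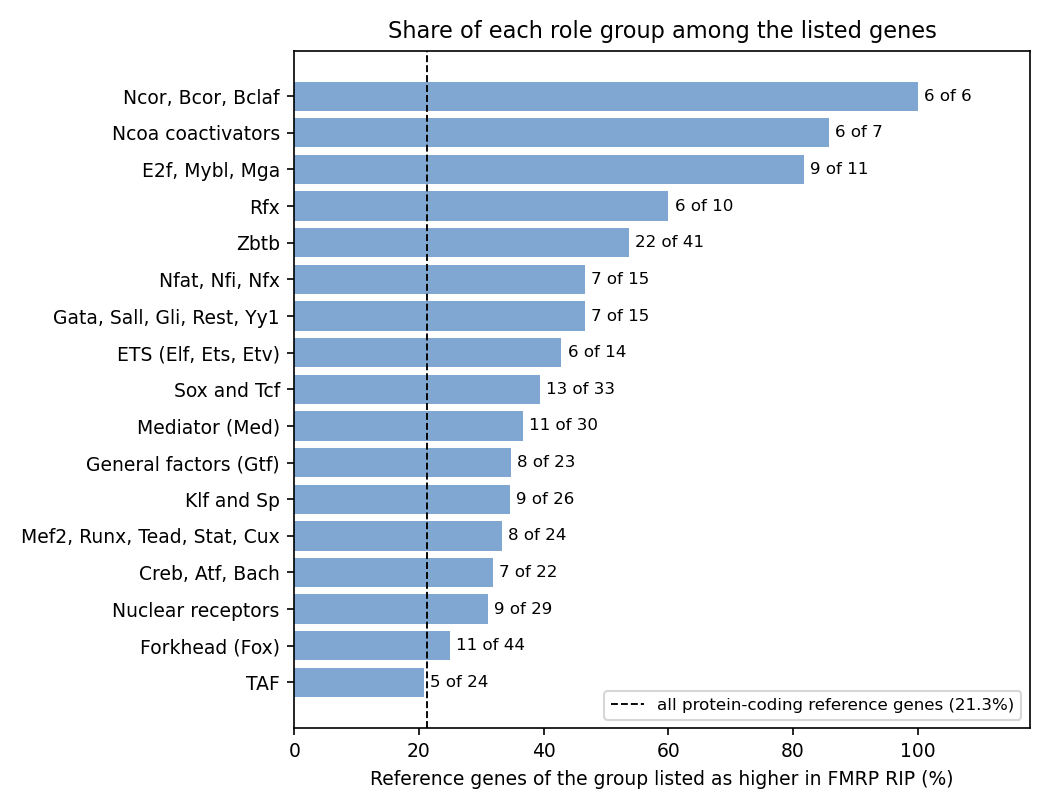
Share of the reference genes of each role group that were in the table (%), with the number listed and the number in the group beside each bar and the share over all protein-coding genes as a line. Corepressors (6 of 6), the *Ncoa* genes (6 of 7) and the E2F, MYBL and MGA group (9 of 11) reach furthest to the right, and the TAF genes (5 of 24) lie just below the line at 21.3%.

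The size of the enrichment was close to that of the other listed genes. Enrichment was the log2 of FMRP RIP over input with 1 CPM (reads scaled to the library total) added to each, so changes of rare transcripts come out too small. The 150 genes had a median log2 ratio of 1.38 (quartiles 1.02 and 2.02, range 0.55 to 4.29), and all listed genes had a median of 1.35. A log2 ratio above 1 was reached by 114 of 150 (76.0%), beside a background of 70.1% of all listed genes. A log2 ratio above 2 was reached by 41 (27.3%), beside 25.0%. With 1 CPM added, 148 were at least 1.5-fold higher, beside 97.3%. Without it all 150 were, as the table was itself selected at that fold. These shares are near the background and say nothing particular about transcription regulators.

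Most of these transcripts were rare. Their median level was 6.58 CPM before and 22.8 CPM after precipitation, against 9.27 and 30.6 CPM for all listed genes, and 92 of 150 lay under 10 CPM in the input. Together they took up 0.246% of reads before precipitation and 1.06% after it, a ratio of 4.30, where all listed genes together had a ratio of 3.89. In a whole tissue, fewer cells of a type and less RNA per cell cannot be told apart, so a low CPM does not say how strongly a factor is made in the cells that use it. The *Zfp*, *Zkscan* and *Zscan* zinc finger genes, the family most like these, were at lower input levels (204 genes, median 2.82 CPM) and had a median log2 ratio of 1.5.

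Enrichment on the log2 scale was larger at higher input levels. The median log2 ratio was 0.83 for the 12 genes under 1 CPM in the input, 1.35 for the 80 genes from 1 to 10 CPM, 1.70 for the 55 genes from 10 to 100 CPM and 1.91 for the 3 above that. The same medians over all listed genes were 1.0, 1.29, 1.54 and 1.56. Spearman's rho between the log2 ratio and the input CPM was 0.36 across the 150 genes, which share both libraries, and 0.03 without the added 1 CPM.

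**Figure D2:**
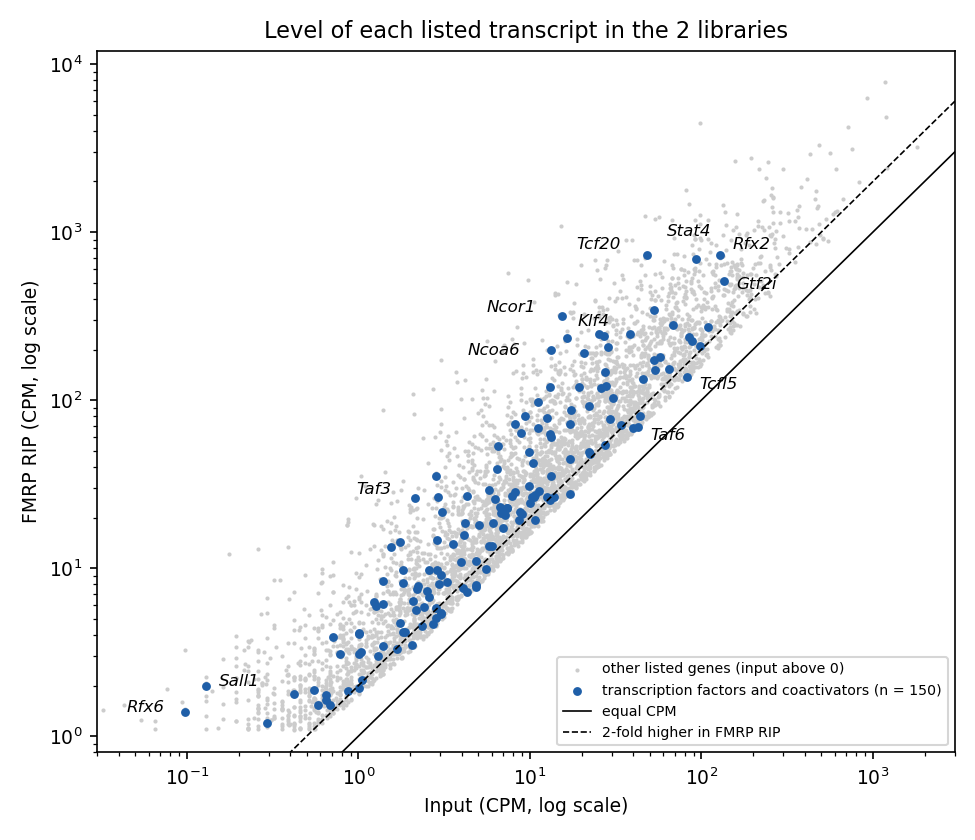
Input level (horizontal, CPM, log scale) against FMRP RIP level (vertical, CPM, log scale) of each listed gene, with the 150 transcription factor and coactivator genes in blue, all other listed genes with an input above 0 in grey, a solid line at equal levels and a dashed line at 2-fold. *Ncor1*, *Klf4*, *Ncoa6* and *Tcf20* lie farthest above the lines among the blue genes with over 10 CPM in the input, and *Taf6* and *Tcfl5* lie between the lines.

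*Ncor1* stood first. It encodes a corepressor that connects unliganded nuclear receptors with histone deacetylase, and its gene lies on chromosome 11 from 62316426 to 62458541 (GRCm38). Its input level of 15.3 CPM compared with 318 CPM in FMRP-precipitated RNA, a ratio of 20.8 (exact 95% interval 19.0 to 22.8, log2 4.29), which placed it 46th of the 4788 listed genes. Intervals are from read counts, and as duplicate reads are not independent molecules they cover counting error only.

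The next 3 genes encode a chromatin-associated coregulator, a coactivator and a zinc finger factor. *Tcf20* (chromosome 15, 82808436 to 82987872), a coregulator in spite of a name shared with HMG box factors, had an input level of 47.9 CPM and a RIP level of 732 CPM, a ratio of 15.3 (14.5 to 16.1). *Ncoa6* (chromosome 2, 155390656 to 155473894), a coactivator found in histone H3 lysine methyltransferase complexes, had 13.3 and 197 CPM, a ratio of 14.9 (13.5 to 16.5). *Klf4* (chromosome 4, 55527143 to 55532466), a Krüppel-like factor known from pluripotent cells and from post-meiotic germ cells, had 16.5 and 233 CPM, a ratio of 14.1 (12.9 to 15.4). The intervals of these 3 overlap one another, and all 3 lie below that of *Ncor1*.

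In places 5 to 10 by log2 ratio stood genes of several roles, with ratios between 8.97 and 12.5. They were *Cux1* (log2 3.25), a CUT homeodomain factor, *Foxp1* (3.24), a forkhead repressor, *Med13* (3.14) and *Med15* (3.10) of Mediator, *Sox6* (3.12), an HMG box factor, and *Taf3* (3.11), the TFIID subunit that binds methylated histone H3. *Foxp1* and *Taf3* were at low input levels, 2.82 and 2.14 CPM, and their intervals are wide (10 to 15.7 and 9.52 to 15.9). With 1 CPM added and at least 100 reads over both libraries, the lowest log2 ratios were those of *Klf11* (0.55), *Nfatc1* (0.56), *Sox17* (0.59), *Zbtb7b* (0.60) and *Taf15* (0.60).

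In the general machinery, TAF genes were listed at a share near that of all protein-coding genes (5 of 24, 20.8%, beside 21.3%). None of the 12 genes of RNA polymerase II subunits was in the table, beside the same 21.3%. *Tbp*, *Tbpl1* and *Tbpl2* were not listed either, whereas *Btaf1*, the ATPase that removes TBP from DNA, was (log2 1.5). Of the 5 TAF genes, *Taf3* went from 2.14 to 26.2 CPM between input and RIP (ratio 12.2) and *Taf4*, a core subunit of TFIID, from 1.56 to 13.4 CPM (ratio 8.59, 6.38 to 11.8). *Taf4b*, its germ cell counterpart, which maintains spermatogonial stem cells, went from 7.33 to 22.8 CPM (ratio 3.11, 2.68 to 3.62). *Taf6* (ratio 1.61) and *Taf15* (ratio 1.63), which encodes an RNA-binding protein, were near the lowest ratios of the table.

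The 8 listed genes named *Gtf* had a median log2 ratio of 1.33, and only *Gtf2h1*, a subunit of TFIIH, was above 2. It went from 17.5 to 87.3 CPM (ratio 5.0, 4.56 to 5.48, log2 2.26). *Gtf2i*, which encodes TFII-I, a signal-responsive factor, had the highest input level of all 150 genes (136 CPM) and reached 512 CPM after precipitation (ratio 3.77). *Gtf2f1* of TFIIF (1.36) and *Gtf2a1* of TFIIA (1.29) lay in the middle. The TFIIIC genes *Gtf3c1* (1.09) and *Gtf3c2* (0.75), which serve RNA polymerase III, were the lowest of the group. The testis counterparts *Taf7l* and *Gtf2a1l* were not listed.

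Mediator was listed in part, and unevenly. All 4 *Med* genes of the kinase module, the detachable part that holds CDK8 or CDK19, were in the table, against 7 of the other 26, a share near the 21.3% of all protein-coding genes. *Med13*, which joins that module to the core, went from 20.7 to 191 CPM (ratio 9.22, 8.50 to 10), and its paralog *Med13l* from 11.1 to 97.7 CPM (ratio 8.81, 7.89 to 9.88). *Med12* and *Med12l*, which activate the kinase, had ratios of 3.08 and 3.17. The kinases themselves had log2 ratios of 0.85 (*Cdk8*) and 1.3 (*Cdk19*), and the cyclin gene *Ccnc* was not listed. The *Med13* pair thus lay above the *Med12* pair, with intervals that do not meet.

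Outside the kinase module, *Med15*, a tail subunit bound by activators, was as high as *Med13* (13.0 to 119 CPM, ratio 9.15). *Med1*, the contact for nuclear receptors, had a ratio of 3.30 (52.6 to 174 CPM), *Med24* 3.14, *Med26* 2.95 and *Med16* 2.83, a narrow range. *Med25* (1.96) and *Med7* (1.81) were lowest. Of the 11 listed *Med* genes, 9 were above a log2 ratio of 1 and 3 above 2, beside 70.1% and 25.0% of all listed genes, with a median of 1.54.

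The 6 listed *Ncoa* genes had the highest median of the 17 groups (log2 2.29). Of these, 5 were above 2, beside 25.0% of all listed genes. The p160 coactivators, which bind liganded nuclear receptors, were *Ncoa2* (28.7 to 207 CPM, ratio 7.21), *Ncoa1* (13.3 to 60.5 CPM, ratio 4.56) and *Ncoa3* (17.2 to 72.3 CPM, ratio 4.19). *Ncoa7* had a ratio of 8.12 from a low level (1.75 CPM in the input). *Ncoa4*, better known as the receptor for ferritin degradation, was the lowest (87.9 to 224 CPM, log2 1.34), and *Ncoa5* was not listed.

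The corepressors had a median log2 ratio of 1.53, and their highest value was that of *Ncor1*. *Bcor* and *Bcorl1*, which belong to a Polycomb repressive complex, had similar ratios of 4.09 and 3.84 at input levels of 1.0 and 4.12 CPM. *Bclaf1* had a log2 ratio of 1.02 and *Bclaf3* 0.74. The related histone acetyltransferase and BET genes, which the symbol rule does not take in, were all listed (8 of 8), beside 21.3% of all protein-coding genes. All 8 were above a log2 ratio of 1 (median 2.33), beside 70.1% of all listed genes. *Crebbp*, the acetyltransferase that works with the p160 coactivators, went from 13.3 to 159 CPM (ratio 12), and *Brdt*, the testis-specific BET protein, had a ratio of 6.82 and *Ep300* 4.59. Of 13 elongation factor genes, 10 were listed, beside the same 21.3%, with a median of 1.0, from *Eaf1* (0.69) to *Supt6* (3.19). Both lists were chosen with earlier results of these data known, so these shares are a description only.

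**Figure D3:**
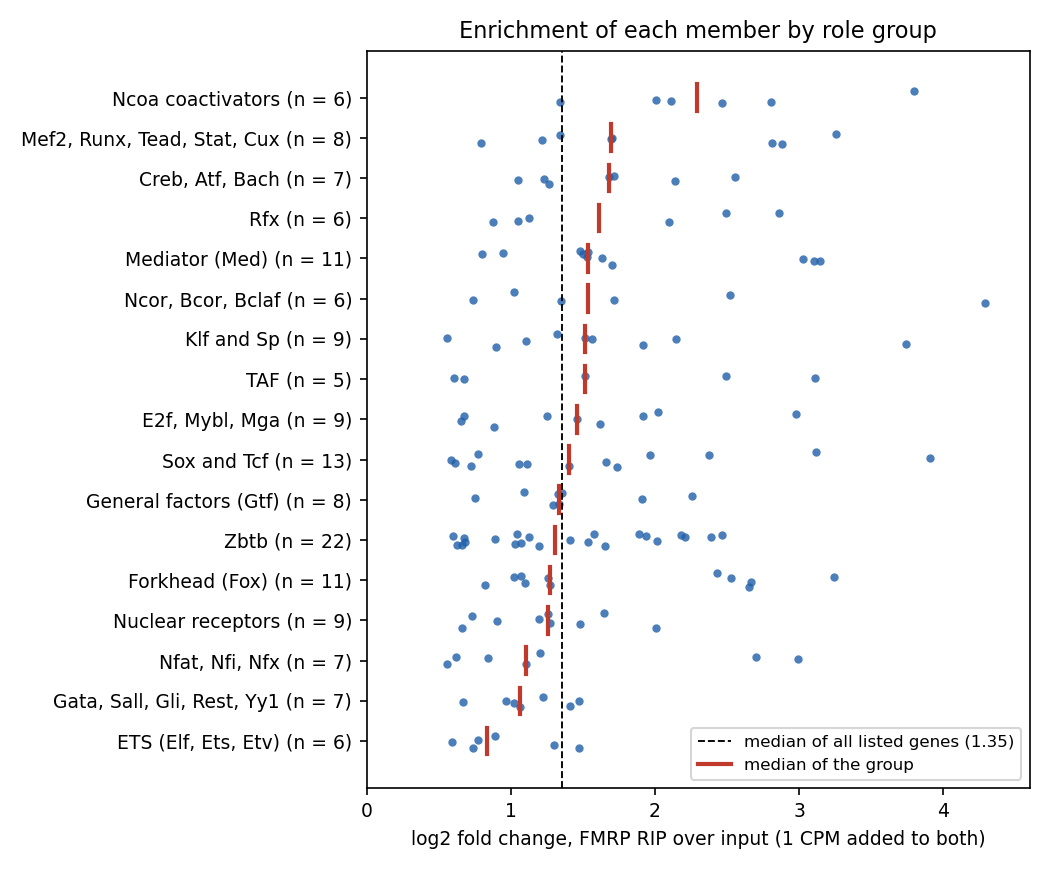
Log2 of FMRP RIP over input (1 CPM added) for each of the 150 genes, by role group, with the median of each group and, as a line, the median of all listed genes (1.35). The *Ncoa* group has the highest median (2.29) and the ETS group the lowest (0.83), and most groups span values from under 1 to over 2.

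Factors assigned to meiotic and post-meiotic germ cells were taken from a list of 17 spermatocyte and spermatid regulators, chosen with earlier results of these data known. Of these, 12 were in the table, beside 40.1% of the genes of the symbol rule and 21.3% of all protein-coding genes. The 12 include *Sall1*, which had only 4 input reads. The median log2 ratio of the 12 was 1.96, and 10 of them were above 1, beside 70.1% of all listed genes. Of 7 spermatogonial factors, 3 were listed: *Taf4b* (1.51), *Foxo1* (1.07) and *Sall4* (1.02). Of 14 factors of somatic testis cells, 2 were: *Nr3c1* (1.26), the glucocorticoid receptor, and *Nr4a1* (0.66). Of 16 germ cell markers, 4 were listed (*Sycp1*, *Sycp2*, *Odf2* and *Akap4*, log2 1.11 to 3.59), a share near the 21.3% of all protein-coding genes. The other 12, among them *Ddx4*, *Dazl*, *Sycp3*, *Tnp1* and *Prm1*, were not listed, and neither was any of 12 Sertoli and Leydig cell markers. The difference between these shares and the part of cell type in it were not tested.

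*Rfx2*, the factor that drives ciliary and flagellar genes in spermatids, combined a high level with a high ratio. It lies on chromosome 17 from 56775897 to 56831013 (GRCm38) and went from 129 to 732 CPM, a ratio of 5.67 (5.48 to 5.86, log2 2.49). *Rfx1* had a ratio of 4.39 (27.8 to 122 CPM). With 1 CPM added, *Rfx7* had the highest log2 ratio of the family (2.86, 6.48 to 53.5 CPM, ratio 8.25). *Rfx6* had a higher ratio of 14.4, but from 3 input reads (4.65 to 72.0, log2 1.13). *Rfx4* (43.6 to 80.8 CPM, ratio 1.86) and *Rfx5*, the MHC class II regulator (ratio 2.29), were low, and *Rfx3* was not listed.

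*Stat4*, a STAT factor found in late spermatids as well as in lymphocytes, was similar to *Rfx2* in level and higher in ratio (92.6 to 690 CPM, ratio 7.45, 7.17 to 7.75). *Sox30*, required for spermatid development, had a ratio of 5.34 (27.5 to 147 CPM). *Mybl1*, the master regulator of meiotic transcription, had a ratio of 4.03 (10.5 to 42.2 CPM) and *Tcfl5*, a bHLH factor of the same stage, only 1.66 (82.7 to 137 CPM, 1.58 to 1.74). A germ cell factor with a high input level was thus among the lowest in ratio. *Taf7l*, *Gtf2a1l*, *Creb3l4* and *Crem*, all tied to spermatid gene expression, were not listed. A further list of 16 germ cell regulators outside the symbol rule had 5 listed genes, with a median log2 ratio of 1.33, and *Hsf2* was among them (1.33).

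Nuclear receptors were moderate. Of 29 genes, 9 were listed, with a median log2 ratio of 1.26, and only *Nr2c2* (testicular receptor 4) was above 2 (68.4 to 278 CPM, ratio 4.07, log2 2.01). *Rora* came second in log2 ratio (1.64, ratio 3.39). *Nr6a1*, the germ cell nuclear factor, followed (84.7 to 238 CPM, ratio 2.81, log2 1.48), and *Nr2c1* had a log2 ratio of 1.27. *Nr4a3* had a ratio of 3.94 (2.52 to 6.41) from only 0.778 CPM in the input (log2 1.19). *Nr4a1*, an immediate early gene, was the lowest (ratio 1.62). The androgen receptor gene and *Nr5a1* were not listed.

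The BTB zinc finger genes were the largest group, with 22 of 41 listed, 16 above a log2 ratio of 1 and 5 above 2, shares near the 70.1% and 25.0% of all listed genes. Their products mostly repress transcription through corepressors such as NCOR1. *Zbtb38*, which binds methylated DNA, was highest (3.08 to 21.5 CPM, ratio 6.99). By log2 ratio with 1 CPM added, *Zbtb10* (ratio 6.23), *Zbtb20* (4.99), *Zbtb18* (4.81) and *Zbtb44* (4.18) followed. By ratio alone, *Zbtb41* (5.39, 4.06 to 7.27, from 1.82 CPM in the input) lay above *Zbtb20*. *Zbtb7b*, the regulator of CD4 T cell fate, was lowest (ratio 1.70). *Zbtb16*, the spermatogonial factor PLZF, was not listed. The group median was 1.3, below that of all listed genes.

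Among the forkhead genes, the 11 listed ones fell into a higher and a lower range. *Foxp1* (ratio 12.5), *Foxm1* (6.46), *Foxk2* (6.41), *Foxk1* (6.15) and *Foxn3* (6.07) were above a log2 ratio of 2, and the log2 ratios of the other 6 lay between 1.27 (*Foxo3*) and 0.82 (*Foxn2*). *Foxm1*, which drives mitotic genes, had the highest level (53.2 to 343 CPM). *Foxo1* and *Foxo3*, the targets of insulin signalling, had ratios of 2.61 and 2.55.

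SOX and TCF genes ranged from 0.59 (*Sox17*) to 3.91 (*Tcf20*). *Sox6* went from 27.0 to 242 CPM (ratio 8.97), and its relative *Sox5* from 30.3 to 103 CPM (ratio 3.40). The bHLH partners *Tcf12*, *Tcf3* and *Tcf4* had log2 ratios of 1.66, 1.40 and 1.05 with 1 CPM added. By ratio, *Tcf12* (3.48) and *Tcf3* (3.39) were close to *Sox5*, and *Tcf4* (2.25) was lower. With 1 CPM added, only *Klf4* and *Sp3* (ratio 5.0) of the KLF and Sp genes were above a log2 ratio of 2. Without it, *Sp4* (ratio 5.45, from 0.713 CPM in the input), *Sp2* (4.43) and *Klf12* (4.36) were also above 2. *Klf11* was the lowest of all 150 genes with 1 CPM added (log2 0.55). Its ratio of 1.94 lay above the lowest ratio, that of *Sox17* (1.605). *Klf4* stood well apart from the rest of its family, whose next log2 ratio with 1 CPM added was 2.14.

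In the cell cycle group, *Mga*, a MAX partner in a Polycomb complex that represses meiotic genes, was highest (9.37 to 80.5 CPM, ratio 8.60). With 1 CPM added, the atypical repressors *E2f8* (2.02) and *E2f7* (1.62) lay above *E2f4* (1.25), *E2f1* (0.88) and *E2f3* (0.68). By ratio, *E2f3* (2.63, 1.52 to 4.75, from 18 input reads) lay above *E2f4* (2.51) and *E2f1* (2.31). Its interval overlaps those of *E2f7* and *E2f8*. *Mybl2*, the mitotic MYB factor, had a ratio of 3.54 at 2.22 CPM in the input. Of the NFAT, NFI, NFX and NFY genes, *Nfat5*, the osmotic stress factor (8.19 to 72.0 CPM, ratio 8.79), and *Nfatc3* (ratio 7.11) were high, whereas *Nfatc2* (0.84) and *Nfatc1* (0.56) were low. The NFAT family thus held both high and low values.

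All 7 listed CREB, ATF and BACH genes were above a log2 ratio of 1 (median 1.68), beside 70.1% of all listed genes. They were led by *Atf7ip*, a cofactor of the histone methyltransferase SETDB1 (19.4 to 119 CPM, ratio 6.12). The ETS genes were the lowest group. Their 6 listed genes had a median of 0.83, and only *Etv6* (1.48) and *Elf2* (110 to 272 CPM, log2 1.3) were above 1. With 1 CPM added, GATA, SALL, GLI, REST and YY1 genes were also low (7 genes, median 1.06, highest *Rest* at 1.47). Their median input level was only 1.75 CPM, so these log2 ratios come out too small. By ratio, *Sall1* (15.4, from 4 input reads) and *Gli2* (4.23) lay above *Rest* (3.07), and the other genes of the group lay below it. In the last group, *Cux1* (25.2 to 249 CPM), *Stat4* and *Runx1t1*, a corepressor of the ETO family (ratio 9.09), were above 2, and *Tead1*, the partner of YAP, was lowest (0.80).

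Pairs of related genes were set side by side by their intervals. Of 30 pairs, 18 had both genes listed, 7 had 1 and 5 had none. The intervals overlapped in 10 pairs and lay apart in 8. *Foxn3* and *Foxn2* differed most (6.07 against 2.04, a 2.98-fold difference), followed by *Taf4* and *Taf4b* (8.59 against 3.11) and *Sox6* and *Sox5* (8.97 against 3.40). The other pairs that lay apart were *Cux1* and *Cux2*, *Ncoa2* and each of its p160 relatives, *Nr2c2* and *Nr2c1*, and *Rfx2* and *Rfx1*. Closest were *Foxo1* and *Foxo3*, *Med12* and *Med12l*, *Foxk1* and *Foxk2*, and *Med13* and *Med13l*, with ratios that differed by 1.02-fold to 1.05-fold. Intervals that overlap do not show equal enrichment, and those that lie apart were not checked in a replicate.

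**Figure D4:**
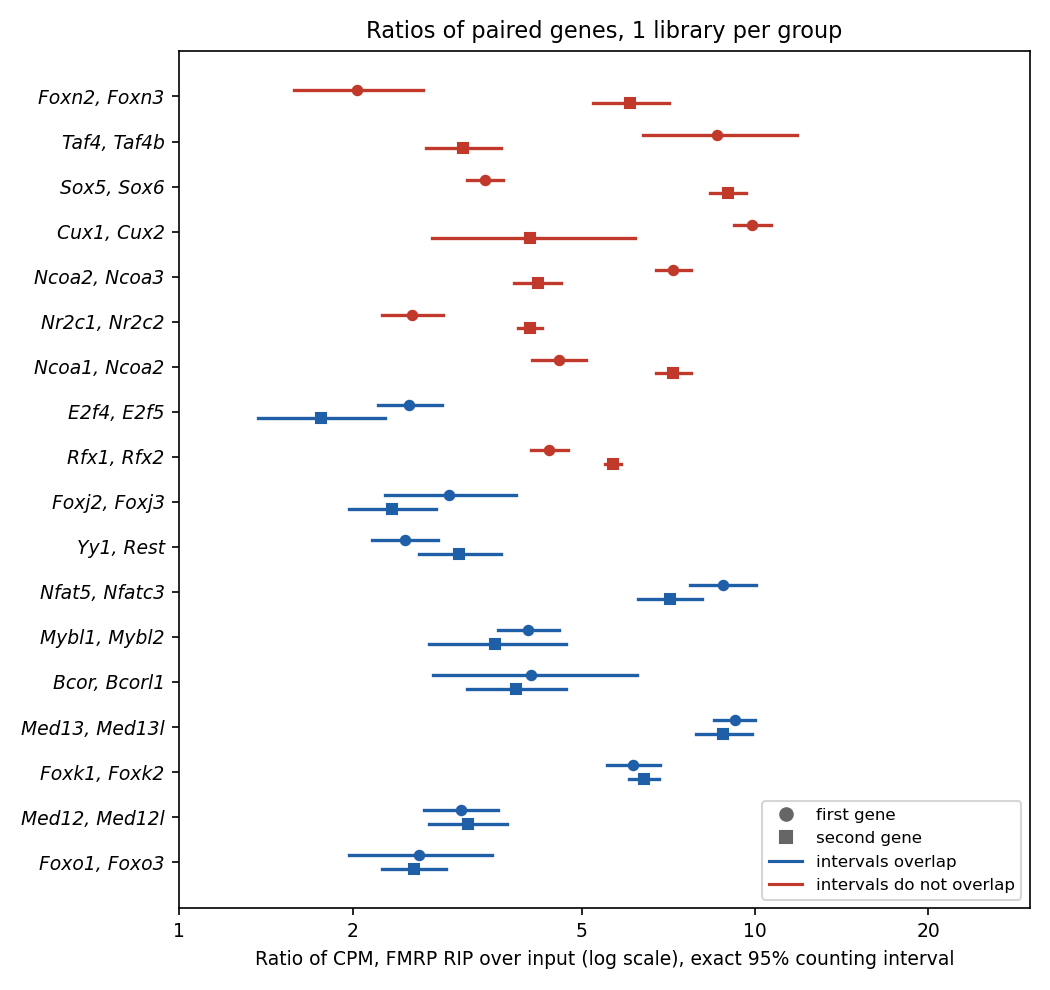
Ratio of FMRP RIP to input (log scale) with its exact 95% interval for both genes of the 18 related pairs in which both were listed. *Foxn3* and *Foxn2*, *Taf4* and *Taf4b*, and *Sox6* and *Sox5* lie farthest apart, and the bars cover counting error only.

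The listed transcription regulators had long genes, as did the listed genes in general. Their median span, from gene start to gene end with introns, was 51.0 kb, beside 48.2 kb for all 4717 listed genes with a span and 13.6 kb for the 224 genes of the same rule that were not listed. All protein-coding genes were cut by span into 4 bins of equal size. Of the rule genes in the bin up to 5.65 kb, 3 of 69 were listed, and of those in the bin from 44.3 kb, 81 of 121 (66.9%). All protein-coding genes showed the same order, with 3.40% and 45.2%. From the shortest to the longest bin, the share for transcription regulators was 1.28, 2.43, 1.69 and 1.48 times that for all genes. Spearman's rho between span and log2 ratio was 0.37 across the 150 genes, which share both libraries, and 0.17 across all listed genes with a span. *Klf4* is an exception, with a span of 5.34 kb. Span is not transcript length, and the part of length in which genes were listed was not tested.

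**Figure D5:**
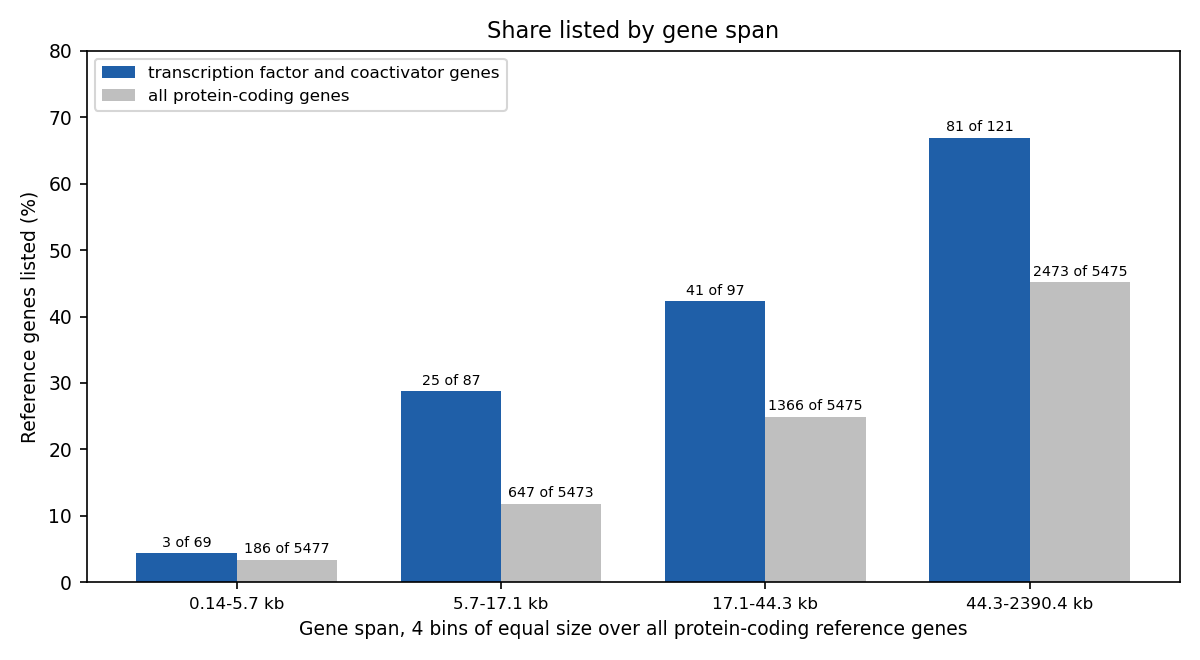
Share of reference genes that were listed (%), by bin of gene span (kb, 4 bins of equal size over all protein-coding genes), for the transcription factor and coactivator genes (blue) and all protein-coding genes (grey), with counts above the bars. Both rise from left to right, to 66.9% and 45.2% in the longest bin.

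The X chromosome, which is silenced during meiosis, held 5 of the 150 genes (3.33%, against 2.90% of all listed genes): *Bcorl1*, *Med12*, *Bcor*, *Elf4* and *Bclaf3*. Their log2 ratios were between 0.74 and 1.72, and their input levels between 0.648 and 7.39 CPM.

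The rarest transcripts set the limit of these values. *Rfx6*, known from the pancreas, had 3 input reads and 51 RIP reads, and *Sall1* had 4 in the input. Their ratios of 14.4 (4.65 to 72.0) and 15.4 (5.77 to 58.1) are as high as those of *Ncoa6* but span an order of magnitude, and with 1 CPM added their log2 ratios are 1.13 and 1.41. A further limit is the counting. In 33 of the 150 genes, *Ncor1*, *Rfx2* and *Gtf2i* among them, the level was not a whole number of reads (within 0.005 read) in at least 1 library, and 21 genes overlap another protein-coding gene. Whether reads were counted by strand is not given, so reads of overlapping genes may not be separable.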

How the data were processed

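RNA immunoprecipitation sequencing with an anti-FMRP antibody was done on adult wild-type mouse testis, with 1 input and 1 FMRP RIP library, grouped by their labels. The authors deposited gene levels as CPM (reads scaled to the library total), although the table is named for counts. The submitters' processing notes name STAR and the build GRCm38 (mm10), and the counting tool is not given in the sources used here. The table's further columns hold the authors' own fold changes, p-values and adjusted p-values from edgeR and were not used.

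Every CPM value was a multiple of 0.01 read, which gave the library totals. For input and RIP, 1 read equals 0.0324 and 0.0274 CPM, and the floor of 3 reads lies at 0.0972 and 0.0822 CPM. Since only 78.4% (input) and 78.8% (FMRP RIP) of the values above 0 were whole reads, and with 1 library per group, no count test was run. The log2 ratio of CPM with a pseudocount of 1 CPM and the ratio of CPM with an exact Clopper-Pearson interval at 95%, from rounded reads, were computed.

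Genes were taken by symbol pattern, all 150 matched the RefSeq table of GRCm38.p6 by symbol, and of 4745 listed symbols 71 had no match. The members and lists were chosen with earlier results of these data known. Genes were named from the fixed lists and pairs, as the highest and lowest with at least 100 reads of each role group with at least 3 listed genes, and as the 10 highest and 5 lowest of all. Other genes were named after their values were seen. A few genes, and 1 pair, are not reported here. Alternatives were pseudocounts of 5 and 0.125 CPM and, added after the data were seen, none; a minimum of 1 CPM; scaling to reads outside the listed genes; removal of 6 symbols of other function; unique symbols; genes with RefSeq NM transcripts; and genes with whole reads. The functions were tested on simulated data. Software was pandas 2.3.3 and numpy 2.4.6 under Python 3.11.15, with scipy 1.17.1 for intervals and matplotlib 3.10.9 for plots.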

Additional observations from a re-analysis of the deposited data

How the results depend on the processing

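The order across all 150 genes depended little on the settings of pseudocount and scaling, and the size of the log2 ratios depended on them. Spearman's rho with the main order was 0.91 to 0.99, and at least 8 of the 10 highest genes were shared. Within role groups, genes at low input levels changed places, such as *Zbtb41*, *E2f3* and *Sp4* without a pseudocount. The count above a log2 ratio of 2 was 41, and became 25 with a pseudocount of 5 CPM and 98 when both libraries were scaled to their reads outside the table, which multiplies each FMRP RIP value by 1.92. The median log2 ratio of 1.38 became 1.03 with 5 CPM, 1.61 with the smaller pseudocount, 1.63 without a pseudocount and 2.27 with that scaling, each by construction of the setting. The count above 1 was 114 and lay between 76 and 150 in the alternatives. *Ncor1* was first and the *Ncoa* genes had the highest group median in all 5 settings of pseudocount and scaling, and the ETS genes had the lowest, except with 5 CPM, where the GATA, SALL and GLI group did (0.45). Without a pseudocount, *Sall1* and *Rfx6* entered the 10 highest. Without the 6 symbols whose products have another main function (*Tcf25*, *Ncoa4*, *Ncoa7*, *Taf15*, *Bclaf1* and *Bclaf3*) the count above 1 was 110. The 150 listed genes all have an NM transcript, and on that basis the listed share was 40.1% against 22.1% of all genes. No paired analysis was possible because input and RIP were sequenced as 1 library each. Levels per kb and features of the transcripts were not analysed here. Values under about 1 CPM rest on few reads.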
